A study of Mus musculus with 39 samples.

Results

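Notch pathway and lineage choice genes were examined in single cells of the irradiated mouse small intestine. The set was defined by gene symbol and held 8 of the 25219 genes measured, 4 on the receptor side (Notch1, Notch2, Rbpj and Hes1) and 4 on the ligand side (Dll1, Dll4, Jag1 and Atoh1). All 8 symbols were found, each in 1 row.

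Notch signalling passes between touching cells. A ligand of the Delta or Jagged family on 1 cell binds a Notch receptor on its neighbour, the receptor is cleaved, and its intracellular part enters the nucleus and joins the DNA-binding protein Rbpj to switch on targets such as Hes1. In the crypt, Hes1 is a repressor known to act on Atoh1, the transcription factor that secretory cells (goblet, Paneth, enteroendocrine) need, and secretory precursors are known to carry Delta ligands.

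The cells came from mice that carried Lgr5-EGFP-Ires-CreERT2 and, as the reporter, Rosa-lsl-tdTomato, were given tamoxifen 24 h before 10 Gy total body irradiation, and gave cells 48 h after it. tdTomato+ Sca1- crypt epithelial cells, called Sca1- Lgr5-derivatives, were captured singly, and 39 cells were sequenced over full-length transcripts. Cre in these mice is driven from Lgr5, so the reporter marks cells that expressed Lgr5 at the time of tamoxifen together with their progeny, and a cell lacking tdTomato is not represented. No unirradiated cell was analysed here, and the labels do not say which animal a cell came from, so the 39 cells stood as 1 biological sample, no p-value was computed, and the spread given is over cells.

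Each cell had between 398418 and 3903971 estimated counts (median 3089188) and between 2287 and 5779 genes at 1 FPKM or more (median 4609). FPKM counts fragments scaled by transcript length and library size, so levels of different genes can be set side by side, and 1 FPKM was taken as the least value at which a gene counted as detected. All 5 epithelial markers (Epcam, Cdh1, Krt8, Krt18, Krt19) were detected in 37 or more cells, and none of 7 stromal and endothelial markers was detected in any cell. Of 7 leukocyte markers, Cd74 was detected in 20 cells, Lyz2 and Itgam in 1 cell each, and the other 4, Ptprc among them, in 0. Lgr5 itself was detected in 8 cells. Cell 9 was the shallowest library and, with cell 79, had the fewest detected genes.

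The start regions of Atoh1 and the 3 ligand genes are shown because Hes1, a protein that binds N-box and class C DNA sites, is known to act on Atoh1 and on Delta genes. They are RefSeq windows (GRCm38.p6) of 250 bases before to 50 bases after the start of the gene, on the gene's own strand, and 7 of the 8 genes were matched by symbol. Capitals mark every match on either strand to the RBPJ core TGGGAA, the N-box CACNAG, the class C site CACGNG or the E-box CANNTG, a site of the kind that Atoh1 binds. CACGTG would match both of the last 2 motifs, and no match of that kind lay in these windows.
Atoh1, chr6:64728875-64729174, plus strand: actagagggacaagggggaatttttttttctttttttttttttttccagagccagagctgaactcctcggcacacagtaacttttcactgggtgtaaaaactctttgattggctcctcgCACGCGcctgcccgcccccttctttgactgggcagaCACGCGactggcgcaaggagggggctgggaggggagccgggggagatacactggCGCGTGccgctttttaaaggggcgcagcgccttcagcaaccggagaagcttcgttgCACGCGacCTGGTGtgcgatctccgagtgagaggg
Dll1, chr17:15375774-15376073, minus strand: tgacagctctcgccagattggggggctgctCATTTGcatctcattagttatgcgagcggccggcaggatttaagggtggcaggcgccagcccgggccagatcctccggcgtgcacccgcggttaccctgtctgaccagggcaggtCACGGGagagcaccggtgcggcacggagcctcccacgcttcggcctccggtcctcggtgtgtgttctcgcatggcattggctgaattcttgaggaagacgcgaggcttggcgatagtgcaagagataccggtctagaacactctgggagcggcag
Dll4, chr2:119325534-119325833, plus strand: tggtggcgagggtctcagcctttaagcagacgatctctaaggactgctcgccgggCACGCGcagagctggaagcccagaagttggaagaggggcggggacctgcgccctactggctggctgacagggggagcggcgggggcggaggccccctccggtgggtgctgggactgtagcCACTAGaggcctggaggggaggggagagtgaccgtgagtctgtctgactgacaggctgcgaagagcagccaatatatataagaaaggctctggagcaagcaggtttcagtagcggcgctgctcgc
Jag1, chr2:137116471-137116770, minus strand: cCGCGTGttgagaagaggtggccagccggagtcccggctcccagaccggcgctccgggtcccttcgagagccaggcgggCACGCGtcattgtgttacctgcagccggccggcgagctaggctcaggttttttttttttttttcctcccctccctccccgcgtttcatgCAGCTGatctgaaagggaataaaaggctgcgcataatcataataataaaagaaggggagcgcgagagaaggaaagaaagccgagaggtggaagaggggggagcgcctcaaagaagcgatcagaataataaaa

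The Atoh1 window held 4 class C sites, which began 131, 95 and 41 bases before the start and at base 16 after it, and 1 N-box at base 24 after it. Of 32851 RefSeq windows of the same length, 27.5% held a class C site and 0.396% held 4 or more. Dll1 held 1 class C site, 105 bases before the start, and 1 E-box, 220 bases before it. Dll4 held 1 class C site at 195 and 1 N-box at 75 bases before the start. Jag1 held 2 class C sites, at 249 and 171 bases before the start, and 1 E-box at 82 bases before it. No RBPJ core lay in these 4 windows, against 25.6% of all windows, while an N-box lay in 42.5% and an E-box in 72.3%. These are matches of letters only, and binding was not measured. The deposited start of Atoh1 lies 21 bases inside the gene from the RefSeq start used here, so the site at base 16 lies before the deposited start.

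At the limit of 1 FPKM, Hes1, Rbpj, Notch2 and Jag1 were found in most cells, and Notch1, Dll1, Dll4 and Atoh1 in few. Of the 8 genes, 4 (Hes1, Rbpj, Notch2 and Jag1) were detected in at least 20 cells, against 14.5% of all genes measured, and all 8 were detected in at least 1 cell, against 49.3%. Hes1 was detected in 33 cells (84.6%, exact 95% interval 69.5% to 94.1%), Rbpj in 27 (69.2%, 52.4% to 83%), Notch2 and Jag1 in 26 each (66.7%, 49.8% to 80.9%). Notch1 was detected in 11 (28.2%, 15% to 44.9%), Dll1 in 9 (23.1%, 11.1% to 39.3%), and Dll4 and Atoh1 in 4 each (10.3%, 2.87% to 24.2%). The intervals of Notch1, Dll1, Dll4 and Atoh1 lie below those of Hes1, Rbpj, Notch2 and Jag1, and overlap each other. At this limit the receptor Notch1 stood with the sparse ligand side genes and the ligand Jag1 with the common receptor side genes. This grouping depends on the limit. At 5 FPKM or more, Notch1 was found in 15.4% of cells and Notch2 and Dll1 in 12.8% each. Above 0 FPKM, Notch1 was found in 53.8%, Dll1 in 35.9%, Dll4 in 17.9% and Atoh1 in 12.8%. The exact intervals cover counting error over cells only, since the cells stood as 1 sample with no named animal. No molecular identifiers are named for these libraries.

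**Figure D1:**
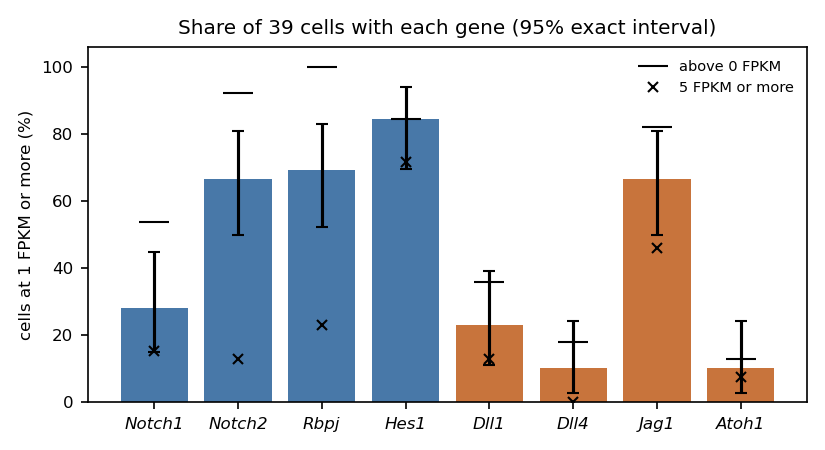
Share of the 39 cells (%, vertical axis) at 1 FPKM or more for each gene, with receptor side genes in blue, ligand side genes in orange and exact 95% intervals as error bars. Dashes mark the share above 0 FPKM and crosses the share at 5 FPKM or more, and Notch2 moves from 92.3% to 12.8% between them while Hes1 is at 84.6% above 0.

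Notch1 and Notch2 encode the receptors of the crypt epithelium. Notch1 (Entrez 18128, mm10 chr2:26457902-26503822, minus strand) ranged from 0 to 28.9 FPKM with a median of 0.0488. Its highest values were 28.9 in cell 56, 14.9 in cell 16 and 11 in cell 83, and these 3 cells held 57.5% of its sum over cells. Notch1 was thus high in few cells and at 0 in 18.

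Notch2 (Entrez 18129, chr3:98013538-98150367, plus strand) ranged from 0 to 6.98 FPKM with a median of 1.44. Its highest values were 6.98 in cell 30, 6.84 in cell 16 and 6.63 in cell 71, which held 25.2% of its sum. Notch2 was low and even, with a mean of 2.08 ± 2.02 FPKM (SD over 39 cells), against 2.44 ± 5.57 for Notch1. Because many Notch2 values lay near 1 FPKM, its share of cells was 92.3% at any value above 0 and 12.8% at 5 FPKM or more. The Notch1 share was 53.8% at any value above 0 and 15.4% at 5 FPKM or more, where it lay above that of Notch2.

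At least 1 of these receptors was detected in 30 cells, both in 7, and neither in 9. The share of cells with both, 17.9% at this limit, was 51.3% above 0 FPKM, 2.56% at 5 FPKM or more and 44.7% in counts thinned to 600000 reads. The Notch2 level exceeded the Notch1 level in 28 cells and the reverse held in 9. Cell 16 carried both receptors at a high level (14.9 and 6.84 FPKM), whereas cell 83 had Notch1 at 11 and Notch2 at 0.

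Rbpj (Entrez 19664, chr5:53555779-53657445, plus strand), the DNA-binding partner of the cleaved receptor, ranged from 0.00413 to 28.4 FPKM with a median of 2.17, and was above 0 in all 39 cells. Its highest values were 28.4 in cell 43, 25.2 in cell 63, 22.7 in cell 92 and 20.1 in cell 46. Its estimated counts were not whole numbers (tolerance 0.01) in 34 cells, which none of the other 7 genes showed in any cell. The cause was not tested, and its low values are uncertain. At 5 FPKM or more, Rbpj was found in 23.1% of cells.

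Hes1 (Entrez 15205, chr16:30065357-30067796, plus strand), the target and repressor, was the most widely detected of the 8 genes. It ranged from 0 to 161 FPKM with a median of 13.6, and only 5.5% of all genes were detected in as many cells. Its highest values were 161 in cell 52, 97.2 in cell 36 and 85.7 in cell 5. Hes1 was either at 0, in 6 cells, or above 1 FPKM, with a lowest detected value of 1.42 in cell 96.

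The 6 cells without Hes1 differed in what else they carried. Cell 94 had Jag1 at 100.9 FPKM, Notch2 at 5.87 and Rbpj at 4.04. Cell 92 had Jag1 at 13.4, Notch2 at 6.29 and Rbpj at 22.7. Cell 76 had Jag1 at 16.1 and no other gene of the set at 1 FPKM or more. Of the other three, cell 67 had Dll1 at 14 and Rbpj at 15.4, cell 43 had Rbpj at 28.4 and Jag1 at 3.90, and cell 79 had none of the 8 at 1 FPKM or more. Cell 79 had 1466913 counts and cell 43 had 661255, against the median of 3089188, and the part of depth in these zeros was not tested. Hes1 had a Pearson r of 0.32 with the number of genes detected over the 39 cells, and the other 7 genes had r between -0.15 and 0.17.

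A receptor and Hes1 were detected together in 28 cells, and a receptor, Rbpj and Hes1 in 19. Hes1 was detected without either receptor in 5 cells and without Rbpj in 10. All 11 Notch1 cells had Hes1 (100%, interval 71.5% to 100%), as did 24 of the 26 Notch2 cells (92.3%, 74.9% to 99.1%). Both intervals include 84.6%, the share of all cells with Hes1.

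**Figure D2:**
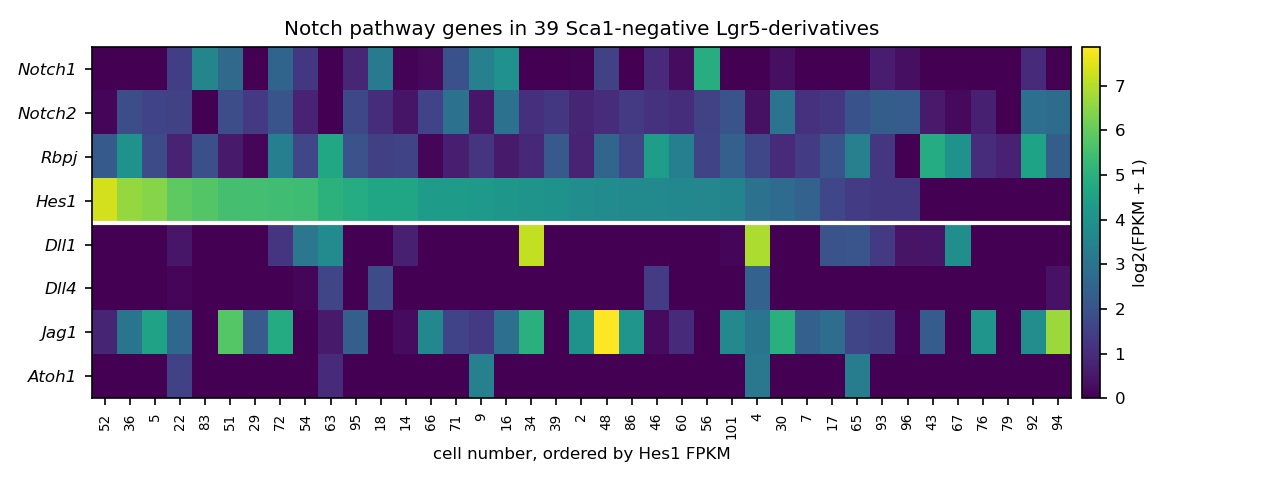
Level of each gene (rows) in each of the 39 cells (columns, ordered by Hes1 from high to low), as log2(FPKM + 1) in colour. The white line parts the receptor side above from the ligand side below, Dll1, Dll4 and Atoh1 are at 0 in most columns, and Jag1 has its highest value in cell 48 (232 FPKM).

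On the ligand side, Jag1 (Entrez 16449, chr2:137081451-137116520, minus strand), a Jagged family ligand, ranged from 0 to 232 FPKM with a median of 4.21. Its highest values were 232 in cell 48, 100.9 in cell 94 and 54 in cell 51, and these held 60.2% of its sum. Jag1 was at 20 FPKM or more in 7 cells and at 0 in 7, so that its range was wide. In cell 48 it rested on 5180 estimated counts beside 76 for Hes1.

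Dll1 (Entrez 13388, chr17:15367354-15375823, minus strand), a Delta family ligand, had a median of 0 and was at 0 in 25 cells. Its highest values were 139 FPKM in cell 34 (1820 counts), 118 in cell 4 (1471 counts) and 14 in cell 67 (131 counts). These 3 cells held 89.6% of its sum. The other 6 cells with Dll1 had 12.8 in cell 63, 7.72 in cell 54, 3.17 in cell 65, 3.04 in cell 17, 1.54 in cell 93 and 1.32 in cell 72. Dll1 was thus a gene of few cells, with cells 34 and 4 far above the rest.

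Dll4 (Entrez 54485, chr2:119325784-119335666, plus strand), the other Delta ligand of the crypt, had the lowest mean and the lowest maximum FPKM of the 8 genes. It was detected at 4.55 FPKM in cell 4, 2.58 in cell 18, 2.13 in cell 63 and 1.56 in cell 46, on 57, 38, 22 and 22 counts. No cell reached 5 FPKM, and 32 cells were at 0.

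Atoh1 (Entrez 11921, chr6:64729146-64731235, plus strand), the secretory regulator, was detected at 9.63 FPKM in cell 9, 8.84 in cell 65, 7.78 in cell 4 and 1.84 in cell 22, on 24, 73, 59 and 14 counts. Cell 63 lay just under the limit at 0.961 FPKM and 6 counts, and the other 34 cells were at 0. The highest Atoh1 value came from cell 9, the library with the fewest counts. Without cells 9 and 79 Atoh1 was detected in 8.11% of cells and Hes1 in 86.5%.

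The order of the 8 genes by mean FPKM was Hes1 (24.4 ± 32.2, SD), Jag1 (16.5 ± 40.05), Dll1 (7.77 ± 28.8), Rbpj (5.40 ± 7.47), Notch1, Notch2, Atoh1 (0.745 ± 2.37) and Dll4 (0.289 ± 0.906). The SD over cells exceeded the mean for every gene except Notch2, and each neighbouring pair in this order differed by less than its SDs. The mean of Dll1 was set by cells 34 and 4, since its median was 0, below those of Rbpj (2.17) and Notch2 (1.44). Among the cells where each gene was detected, the median was 16.8 FPKM for Hes1, 9.62 for Jag1, 8.31 for Atoh1, 7.72 for Dll1, 5.54 for Notch1, 3.54 for Rbpj, 2.36 for Dll4 and 2.15 for Notch2.

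Set against each other, the sides were found together in most cells. Genes of both sides were detected in 30 cells (76.9%), the receptor side alone in 7, the ligand side alone in cell 76, and neither in cell 79. Cell 76 had Rbpj just under the limit at 0.988 FPKM (23.4 counts) and Notch2 at 0.598 (25 counts). More receptor side than ligand side genes were detected in 30 cells and equal numbers in 7, while cells 4 and 76 had more ligand side genes. The most frequent combination was 3 receptor side genes with 1 ligand side gene, in 12 cells. At 5 FPKM or more, genes of both sides were found in 53.8% of cells and more receptor side genes in 51.3%.

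The summed log2(FPKM + 1) of the receptor side had a median of 7.99 and ran from 0.73 in cell 79 to 13.42 in cell 72. The sum of the ligand side had a median of 3.68 and ran from 0, in 4 cells, to 15.57 in cell 4. Over the 39 cells, which share a capture and library procedure and differ in depth, these sums had a Pearson r of -0.11 and a Spearman rho of -0.12. Pearson r was -0.22 without cells 9 and 79 and -0.23 without the 2 cells farthest from the receptor side median. A correlation of this size in sparse values is no finding in either direction.

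Hes1 was present in nearly all cells that carried a Delta ligand or Atoh1. Dll1, Dll4 or Atoh1 was detected in 13 cells, and 12 of these had Hes1, with cell 67 the exception. Hes1 was found in 8 of 9 Dll1 cells (88.9%, interval 51.8% to 99.7%), in all 4 Dll4 cells (100%, 39.8% to 100%) and in all 4 Atoh1 cells (100%, 39.8% to 100%). These intervals too include the 84.6% of all cells. Detection of Hes1 and of Delta ligands or Atoh1 was therefore not mutually exclusive in these cells.

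Levels within those cells gave a mixed picture. Among the 9 Dll1 cells, Dll1 exceeded Hes1 in 6 and Hes1 exceeded Dll1 in 3. Cell 34 had 139 FPKM of Dll1 beside 15.7 of Hes1, and cell 4 had 118 beside 6.65. In contrast, cell 72 had 1.32 of Dll1 beside 42.9 of Hes1, and cell 54 had 7.72 beside 41.5.

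Atoh1 and Hes1 also stood at different ratios from cell to cell. Cell 65 had Atoh1 at 8.84 FPKM and Hes1 at 1.57, and cell 4 had 7.78 and 6.65. Cell 9 had Atoh1 at 9.63 and Hes1 at 17.9, and cell 22 had 1.84 and 59.6. Atoh1 exceeded Hes1 in cells 65 and 4, and in no other cell of those with Atoh1.

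**Figure D3:**
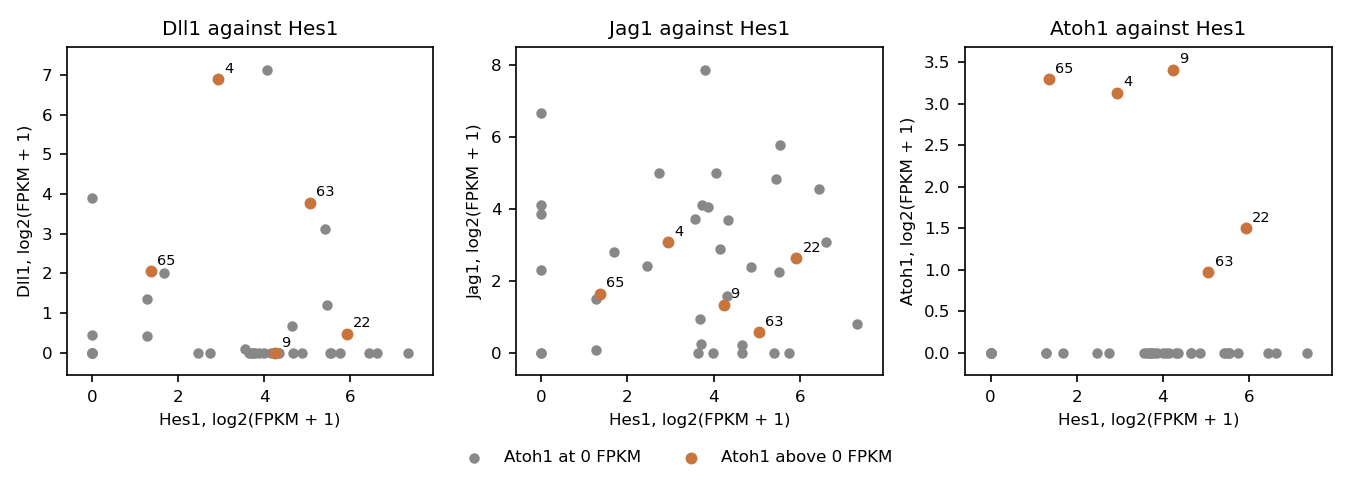
Dll1, Jag1 and Atoh1 (vertical axes) against Hes1 (horizontal axes) in the 39 cells, all as log2(FPKM + 1), 1 point per cell. Orange points are the 5 cells with Atoh1 above 0 FPKM, with their cell numbers, and they span Hes1 from 1.57 FPKM in cell 65 to 59.6 in cell 22.

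At least 2 of Dll1, Dll4 and Atoh1 were detected in 3 cells, and a Delta ligand with Atoh1 in cells 4 and 65. Cell 4 had all 3 genes (Dll1 118, Dll4 4.55 and Atoh1 7.78 FPKM) and was the only cell with all 4 ligand side genes. Cell 63 had Dll1 at 12.8, Dll4 at 2.13 and Atoh1 just under the limit at 0.961, and cell 65 had Dll1 at 3.17 and Atoh1 at 8.84. Pair by pair, Dll1 and Dll4 shared 2 cells (4 and 63) and Dll1 and Atoh1 shared 2 (4 and 65), in each case 22.2% of the 9 Dll1 cells (interval 2.81% to 60.01%) and 50% of the 4 cells of the other gene (6.76% to 93.2%). Dll4 and Atoh1 shared cell 4, which is 25% of the 4 cells of each (0.631% to 80.6%).

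Jag1 was found with and without the Delta ligands and Atoh1. It was detected in 18 cells with none of Dll1, Dll4 and Atoh1, and in 8 cells with at least 1 of them. It was found in all 4 Atoh1 cells, in 6 of 9 Dll1 cells and in 1 of 4 Dll4 cells, beside 66.7% of all cells. Jag1 exceeded Hes1 in 15 cells and the reverse held in 22. Both were at 20 FPKM or more in 3 cells, of 7 such cells for Jag1 and 13 for Hes1.

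Correlations were computed for the 6 genes detected in at least 8 cells, which make 15 pairs. They ran from -0.29 (Notch2 with Dll1) to 0.40 (Notch2 with Jag1), and 14 of 15 lay between -0.3 and 0.3. Hes1 had r of -0.09 with Dll1 and -0.03 with Jag1, both too small to read a direction from. Notch1 with Hes1 had an r of 0.29. Without the 2 cells farthest from the median of the first gene, r went from -0.03 to -0.30 for Dll1 with Jag1, and from 0.14 to 0.01 for Notch1 with Notch2, so these values rest on few cells.

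Notch2 with Jag1 had an r of 0.40 and a rho of 0.43, and 20 of the 26 cells of each gene had the other (76.9%, interval 56.4% to 91.0%). That interval includes 66.7%, the share of all cells in which each of these genes was detected. The value was 0.37 without the 2 cells farthest from the Notch2 median. Of 7292 other genes, 1.03% had as high an r with Notch2 and 1.70% with Jag1. It is a description over cells of 1 sample, picked out after the 15 values were seen.

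The genes most like each member were those with the highest r over the 39 cells among 7292 genes detected in at least 8 cells with a mean of at least 1 FPKM, and as the top of so many values they are high by selection. For Jag1 they were Trp53inp1 (0.67), a p53-induced gene, Rbp7 (0.64), Nfe2l2 (0.62), which encodes the oxidative stress factor NRF2, Ddit4l (0.62) and Ano3 (0.59). For Hes1 they were Glod4 (0.56), Tomm70a (0.56), a mitochondrial import receptor, Rrp15 (0.54), Spc25 (0.54), a kinetochore protein, and the heat shock protein gene Hsph1 (0.54). For Dll1 they were Mnat1 (0.64), Nat9 (0.58), Srebf1 (0.58), a regulator of lipid synthesis, Klf10 (0.52) and Bfar (0.52).

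For the receptors and Rbpj the list was as follows. Notch1 was nearest to Itsn1 (0.70), an endocytic scaffold, Wash1 (0.67), Hscb (0.58), Pisd-ps1 (0.57) and Irf3 (0.55). Notch2 was nearest to Mgmt (0.60), a DNA repair enzyme, Cenpc1 (0.55), Irf2bp2 (0.54), Gtf2f2 (0.54) and Atg9b (0.54). Rbpj was nearest to D3Ertd254e (0.55), Gripap1 (0.55), Mpv17l (0.54), Gm15645 (0.54) and Casc4 (0.54). No gene of the pathway or lineage lists stood among these 30, of which 10 were also chosen by rank correlation.

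Of 48 other genes of the pathway, 10 (20.8%) were detected in at least 20 cells, against 14.5% of all genes. Of the 4 remaining receptors and ligands, Jag2 was detected in 1 cell, at 9.59 FPKM in cell 2, and Notch3, Notch4 and Dll3 in 0 of 39 cells, which allows a share of up to 7.69% (3 cells of 39). Of 13 genes that cleave or glycosylate receptors, 3 were common: Adam10, the sheddase, in 36 cells with a median of 15.1 FPKM, and the gamma-secretase subunits Psenen in 30 (73.5) and Ncstn in 24 (9.48). The receptor-modifying Fringe genes Lfng and Mfng were detected in 0 cells and Rfng in 6.

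Of 11 genes for endocytosis and ubiquitination of ligands and receptors, none was detected in 20 cells, against 14.5% of all genes, a difference of under 2 genes in a list of this size. Numb, an inhibitor of Notch, was detected in 15 cells, the ubiquitin ligase gene Itch in 12, and Mib1, which ligand-sending cells use, in 4. Of 10 nuclear partners of Rbpj, the corepressor Ncor1 was detected in 35 cells (median 10.2 FPKM) and Snw1 in 32 (59.1). The coactivator genes Maml1, Maml2 and Maml3 were detected in 1, 4 and 1 cells.

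Of 10 other genes on the target list, 5 (50%) were detected in at least 20 cells, against 14.5% of all genes, 2 in fewer and 3 in none. Hes5, Hey2 and Heyl were found in 0 cells, Hey1 in 1 (29.8 FPKM in cell 34) and Nrarp, a feedback inhibitor, in 6 (at most 36.1). The list also holds Hes6, which is better known as an antagonist of Hes1 than as a Notch target, and without it 4 of 9 were common. The 5 common genes were Sox9 in 38 cells (median 38.5 FPKM), Ccnd1 in 35 (49.5), Olfm4 in 33 (829), Myc in 29 (41.1) and Hes6 in 23 (6.61). Their r with Hes1 was 0.26 for Hes6, 0.14 for Olfm4, 0.03 for Myc, -0.06 for Sox9 and -0.11 for Ccnd1. None of these 5 followed Hes1 closely over the cells. Olfm4 was also listed as a stem marker, and whether Notch signalling drove any of these 5 genes here was not tested.

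**Figure D4:**
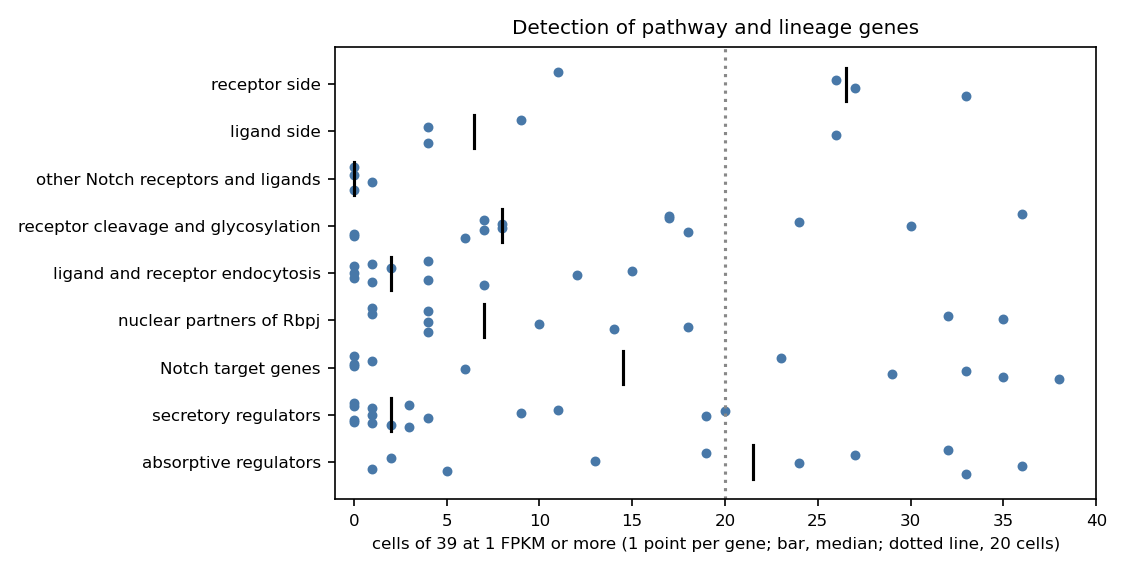
Number of the 39 cells at 1 FPKM or more (horizontal axis) for each gene of the pathway and lineage lists (rows), 1 point per gene, with the list's median as a bar and a dotted line at 20 cells. The receptor side has a median of 26.5 cells and the ligand side 6.5, and the absorptive regulators have 21.5 against 2.0 for the secretory regulators. These regulator lists were not matched, and a lean to either lineage was not tested.

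Lineage regulators were set beside the same 14.5% of all genes detected in at least 20 cells. Of 15 secretory regulators, 1 (6.67%) reached that number, Foxa3 in 20 cells (median 2.81 FPKM), with Xbp1 in 19, Klf4 in 11, Foxa2 in 9 and Creb3l4 in 4. Gfi1b was detected in 3 cells and Pou2f3 in 2, both highest in cell 96 (394 and 162 FPKM). Gfi1, which acts after Atoh1, and the enteroendocrine regulators Neurog3, Pax4 and Insm1 were detected in 0 cells. Of 10 absorptive regulators, 5 (50%) reached 20 cells: Elf3 in 36 cells (111 FPKM), Klf5 in 33 (12.5), Hnf4a in 32 (41.6), Cdx1 in 27 (2.63) and Gata6 in 24 (5.30). For a list of 15 genes the secretory share was close to that of all genes. These lists were not matched for how widely their genes are expressed, and a lean of the cells to either lineage was not tested.

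Spdef, the goblet and Paneth regulator, was detected in 3 cells, at 49.8 FPKM in cell 4, 25.3 in cell 92 and 20.4 in cell 63. Cells 4 and 63 also carried Dll1 and Dll4, while cell 92 had none of Dll1, Dll4 and Atoh1. Xbp1, a factor of the unfolded protein response in secretory cells, stood at 90.6 in cell 4, 116 in cell 65 and 26.2 in cell 63, but at 3.36 in cell 9 and 0.122 in cell 22. Its highest value, 143, was in cell 16, where Dll1, Dll4 and Atoh1 were at 0.

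The summed FPKM of 7 goblet markers (Muc2, Tff3, Fcgbp, Zg16, Clca1, Agr2, Spink4) had a median of 176 over the cells. It was highest in cell 63 (41329), followed by cell 5 (26749), cell 4 (10225), cell 65 (4817) and cell 9 (2022). Atoh1 was at 1 FPKM or more in 3 of these 5 (cells 4, 65 and 9), just under it in cell 63 (0.961, 6 counts) and at 0 in cell 5. Cell 22, the other cell with Atoh1, ranked 12 (338). Cell 5 had none of Dll1, Dll4 and Atoh1 and had Hes1 at 85.7.

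Of these cells, cell 63 had Tff3 at 9579 FPKM, Agr2 at 23329 and Muc2, the main intestinal mucin, at 387, together with the Paneth genes Lyz1 at 1498 and Mmp7 at 1471. Cell 4 had Tff3 at 2850 and Agr2 at 6447, and cell 65 had 2146 and 2670, both with Muc2 at 0. In cell 65, Zg16, Clca1 and Spink4 were also at 0 and Fcgbp stood at 1.71. Tff3 and Agr2 made 79.6% of the goblet sum in cell 63, 99.5% in cell 5, 90.9% in cell 4 and 99.96% in cell 65, whereas Zg16 made 69.4% of it in cell 9, the shallowest library. By FPKM, high ranks in this sum thus came mostly from 1 or 2 of its 7 genes. Other goblet genes were present in some of these cells. Cell 9 had all 7 at 1 FPKM or more, and cells 63 and 4 ranked 1 and 2 in both Spink4 and Fcgbp. These cells were described after their values were seen.

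The summed FPKM of 7 Paneth markers (Lyz1, Defa17, Defa24, Mmp7, Ang4, Pla2g2a, Itln1) had a median of 360. It was highest in cell 56 (12817), which had Atoh1 at 0 and the highest Notch1, followed by cell 63 (4640) and cell 9 (4303). The other cells with Atoh1 ranked 15 (cell 22), 22 (cell 65) and 23 (cell 4) of 39. Cells 56 and 63 had all 7 Paneth genes at 1 FPKM or more, and cell 9, the shallowest library, had 5. In cell 9 the sum was nearly all Defa24 (3305 FPKM) and Defa17 (967), with Lyz1 at 1.33, Mmp7 at 0.956 and Pla2g2a at 0. Defa24 and Defa17 were detected in 38 and 36 of the 39 cells, so they mark no particular cell here.

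The cells with the most Dll1 were not all cells with many goblet transcripts. Cell 34, with the highest Dll1, ranked 34 of 39 in the goblet sum (38.5 FPKM) and had 0 for the summed secretory regulators, and cell 67 ranked 11 (363). Of the 4 Dll4 cells, cell 63 ranked 1, cell 4 ranked 3, cell 18 ranked 13 and cell 46 ranked 27. The highest Jag1 cells ranked 26 (cell 48), 39 (cell 94) and 31 (cell 51). Cell 79, with none of the 8 genes, had the highest enterocyte marker sum (41315 FPKM, of which Fabp1 made 40997) and the second highest tuft marker sum (3932). The highest tuft marker sum (5407) was in cell 96, which also had the highest secretory regulator sum (705) and had Atoh1 at 0.

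**Figure D5:**
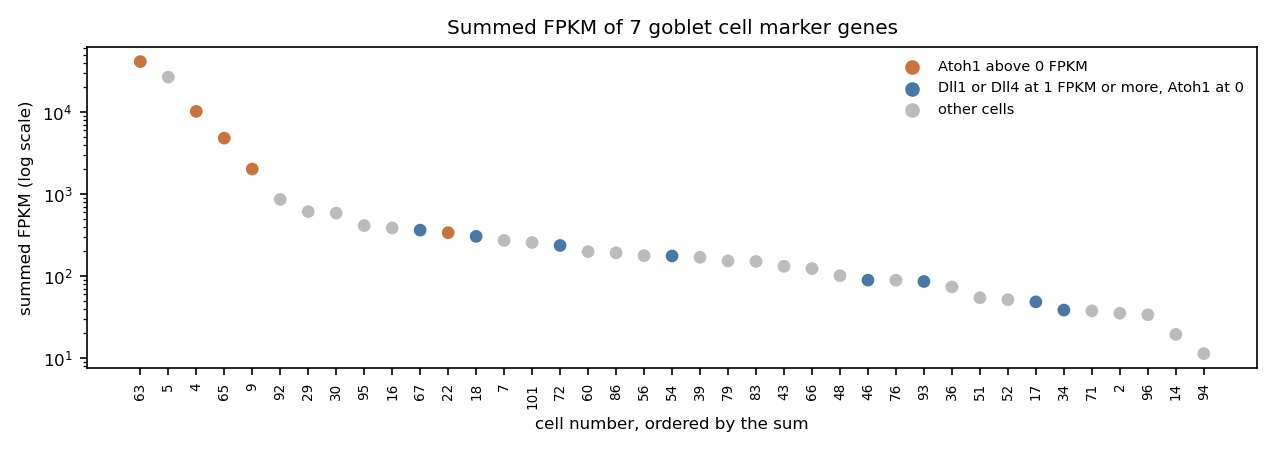
Summed FPKM of 7 goblet markers (vertical axis, log scale) in each of the 39 cells, ordered from high to low. Orange points are the 5 cells with Atoh1 above 0, blue points are cells with Dll1 or Dll4 at 1 FPKM or more and Atoh1 at 0, and 4 of the 5 orange points are among the 5 highest, the highest being cell 63 with Atoh1 at 0.961 FPKM, under the limit of 1. Tff3 and Agr2 make 79.6% or more of the sum in cells 63, 5, 4 and 65, and Zg16 makes 69.4% of it in cell 9, the shallowest library.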

How the data were processed

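tdTomato+ Sca1- crypt cells were captured on a Fluidigm C1 chip whose capture sites were inspected under a microscope, and cDNA was made with SMARTer chemistry and tagmented with Nextera XT for paired-end HiSeq sequencing. The submitters' processing notes name bcl2fastq 1.8.4, TopHat2 2.0.14 and the build mm10 (GRCm38). The program that counted fragments and the annotation release are not given in the sources used here. The authors deposited FPKM per gene and cell, normalized for transcript length and library size. They also deposited estimated counts per gene and cell, of which 17.4% of values above 0 were not whole (tolerance 0.01). Neither chemistry marks strand, so overlapping genes on opposite strands cannot be told apart.

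Detection was set at 1 FPKM, levels were taken as log2(FPKM + 1), and shares were given with exact Clopper-Pearson 95% intervals, except that a share of 0 was given the limit of 3 cells. Pearson and Spearman correlations were taken over the 39 cells, with no p-value because no animal is named. The named genes were the 8 members, genes of fixed lists detected in at least 20 cells or asked for by a result, and the 5 genes with the highest r for each member detected in at least 8 cells. Members, lists, motifs and the 4 sequences shown were chosen with earlier results of these data known. The subgroups of cells that the study defined by clustering are not in the sample labels and were not used. Alternatives were other detection limits, thinning of rounded counts to 600000 reads (38 cells), another pseudocount, rescaling, rank and partial correlation, and leaving out cells 9 and 79. Doublets were not called. No cell pair had identical values. Python 3.11.15, numpy 2.4.6, pandas 2.3.3 and scipy 1.17.1 were used, and the correlation step was tested on simulated data, where planted genes were recovered in part at the weaker effect and fully at a stronger effect, which was added after the weaker had been run.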

Additional observations from a re-analysis of the deposited data

How the results depend on the processing

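The detection limit moved the shares of Notch1, Notch2, Rbpj, Dll4 and Jag1 beyond their intervals. Within its interval, Dll1 went from 23.1% at 1 FPKM to 35.9% above 0 and 12.8% at 5 FPKM. Cells with at least 2 of Dll1, Dll4 and Atoh1 likewise went from 7.69% to 12.8% and 2.56%. At any value above 0 FPKM the share of cells was 53.8% for Notch1, 92.3% for Notch2, 100% for Rbpj and 82.1% for Jag1. At 5 FPKM or more it was 15.4% for Notch1, 12.8% for Notch2, 23.1% for Rbpj, 46.2% for Jag1 and 0% for Dll4. For Dll4, 0 of 39 cells allows up to 7.69% (3 cells of 39). At 10 estimated counts or more it was 82.1% for Notch2 and 87.2% for Rbpj. In counts thinned to 600000 reads, at 1 read or more, it was 47.4% for Notch1, 86.8% for Notch2 and 92.1% for Rbpj. Cells with genes of both sides made 76.9% at 1 FPKM, 89.7% above 0, 53.8% at 5 FPKM and 89.5% after thinning, and cells with more receptor side genes fell from 76.9% to 51.3% at 5 FPKM. Pathway genes detected in at least 20 cells numbered 18 of 48 above 0 in place of 10, while the share of all genes went from 14.5% to 21.6%, and secretory regulators 2 above 0 and 0 at 5 FPKM in place of 1.

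With a pseudocount of 0.1 FPKM in place of 1, the mean log2 level was -1.17 for Notch1 (0.90 before), 0.39 for Notch2 (1.36), -1.55 for Dll1 (0.86), -2.75 for Dll4 (0.20) and -2.63 for Atoh1 (0.32). Of the values for single pairs of genes, 44 moved, all of them shares of cells with both genes, and 176 moved by less than their interval or spread. By rank correlation, 10 of the 30 genes most like the members were chosen again. The other 80 main values moved by less than their interval or spread, and Notch2 with Jag1 ran from 0.36 to 0.47. All 15 pairs of genes kept the sign of r under every alternative run but not its size: Dll1 with Jag1 reached -0.30 and Notch1 with Notch2 0.01 when 2 cells were left out. No paired analysis was possible because the labels give 1 group of cells. Cells are from 1 sample with no named animal, so variation between animals was not measured, and a gene at 0 in a cell was not detected at that depth.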
